A study of Mus musculus with 4 samples.

Results

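Occupancy of KLF1 was examined at 4 genome windows of the mouse build mm9, set by position around the cell cycle regulator genes E2f2, E2f4, Cdkn2c and Cdkn1b. The members were the authors' listed KLF1 peaks whose start fell in a window, 4 of 945 in all, together with every aligned read in the windows. The E2f2 window (chr4:135700000-135770000) held 3 listed peaks and the E2f4 window (chr8:107800000-107850000) held 1. The Cdkn2c window (chr4:109310000-109370000) and the Cdkn1b window (chr6:134850000-134900000) held 0.

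Chromatin immunoprecipitation followed by sequencing (ChIP-seq) counts DNA fragments recovered with an antibody. Mouse fetal liver collected at E14.5 and labelled erythroid was precipitated with rabbit polyclonal antibodies to KLF1, and DNA taken before precipitation served as the input control. Both groups, KLF1 ChIP and input, came from 4 pooled livers that were Klf3 -/- on a Balb/c background, so all material lacked the related factor KLF3 and no wild-type group was analysed here. Each group was sequenced on SOLiD System 2.0 and System 3.0, and the deposited files hold both runs combined. The ChIP library had 17438921 aligned reads and the input 47356494. With 1 combined library per group there is no replicate error, and every interval and p-value below covers counting error between these 2 libraries only. No expression was measured, so the labelled cell type could not be checked against its marker genes.

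KLF1 is a zinc finger activator of red cell precursors that binds CACCC-type elements in promoters and enhancers. Red cell precursors divide rapidly and then leave the cell cycle as they mature. E2F factors control genes needed for entry into S phase: E2f2 encodes an activating member, and E2f4 a member that acts mainly with the retinoblastoma-related pocket proteins and whose loss causes fetal anaemia in mice. Cdkn2c encodes p18INK4c, an inhibitor of the cyclin D-dependent kinases, and Cdkn1b encodes p27Kip1, an inhibitor of the cyclin E-dependent kinase. Earlier work described E2f2 as a direct target of KLF1.

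The sequences just upstream of these genes are shown because KLF1 is known to bind promoters through C-rich elements. The RefSeq promoter table (build GRCm38.p6) matched 3 of the 4 genes by symbol, and E2f4 had no entry. The 250 bases before the first-listed start are printed 5′ to 3′ on the strand of the gene, with matches to the letters CCNCNCCC on either strand in capitals. The coordinates given with them are GRCm38.p6 and cannot be set against the mm9 positions of the peaks.
E2f2, chr4:136172024-136172273, plus strand: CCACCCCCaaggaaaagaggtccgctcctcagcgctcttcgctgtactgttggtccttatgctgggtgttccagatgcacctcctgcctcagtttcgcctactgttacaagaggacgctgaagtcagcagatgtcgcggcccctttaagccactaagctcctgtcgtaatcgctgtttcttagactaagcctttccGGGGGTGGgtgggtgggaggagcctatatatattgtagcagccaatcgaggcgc
Cdkn2c, chr4:109666757-109667006, minus strand: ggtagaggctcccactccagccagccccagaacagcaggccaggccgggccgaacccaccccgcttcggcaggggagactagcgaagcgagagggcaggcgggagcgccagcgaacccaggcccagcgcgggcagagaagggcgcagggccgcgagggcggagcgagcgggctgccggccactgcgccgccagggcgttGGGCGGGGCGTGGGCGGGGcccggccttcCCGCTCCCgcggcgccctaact
Cdkn1b, chr6:134920151-134920400, plus strand: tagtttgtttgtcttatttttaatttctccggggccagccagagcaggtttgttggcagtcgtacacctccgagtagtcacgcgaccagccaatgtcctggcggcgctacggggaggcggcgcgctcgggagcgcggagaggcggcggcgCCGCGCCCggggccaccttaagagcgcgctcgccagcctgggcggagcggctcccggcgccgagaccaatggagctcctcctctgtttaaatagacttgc

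The letters CCNCNCCC occurred 2 times upstream of E2f2, 4 times upstream of Cdkn2c, where neighbouring matches run together in the print, and 1 time upstream of Cdkn1b. They are common, being present in 45.9% of the 32851 promoter stretches of this length in the table. The stricter CACCC box CCACACCC, present in 3.20% of them, was in none of the 3 stretches printed. The same held for the GATA-type letters AGATAA (9.99% of all) and GATAAG (6.55%). AGATAA and GATAAG share most of their letters and can overlap, and a CCACACCC match is also a CCNCNCCC match. A second annotated start of E2f2 had 5 CCNCNCCC matches, of which 4 overlapped in 1 run of G, and the second start of Cdkn2c had 0. These matches describe letters only. Genome sequence of mm9 and its annotation were not used here, so the letters under the peaks, and whether each peak is in a promoter, intron or exon, were not analysed.

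At E2f2, KLF1 ChIP reads were piled up at 3 places within 14.9 kb. The first, at chr4:135730907-135730922 (site 1), was listed with a height of 15. Height is the authors' count of ChIP reads over the summit. The second, at chr4:135734089-135734108 (site 2), was 3182 bp away and had a height of 29. The third, at chr4:135745845-135745905 (site 3), was 11756 bp further on and had a height of 9, the lowest value in the list. Site 2 thus stood well above the others, and site 3 at the edge of listing.

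At E2f4, 1 peak was listed, at chr8:107824107, also with a height of 29. In the whole list 30 of 945 peaks (3.17%) had a height of 29 or more, and 224 (23.7%) had 15 or more. The median height was 11.

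**Figure D1:**
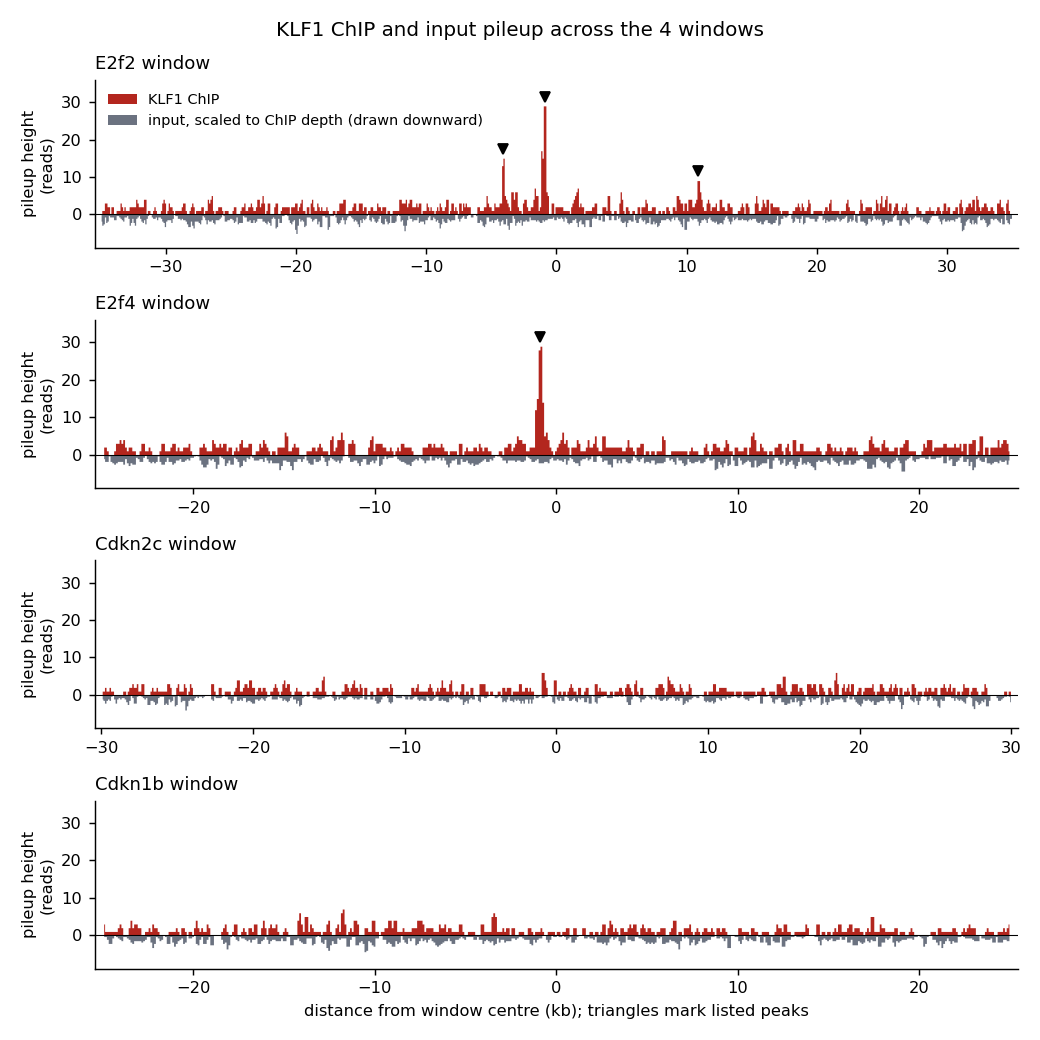
Pileup height (vertical axis, reads, highest value per 100 bp) against distance from the centre of each window (horizontal axis, kb). KLF1 ChIP is drawn upward and input, scaled to the ChIP depth, downward. Triangles mark the listed peaks, with heights of 15, 29 and 9 in the E2f2 window and 29 in the E2f4 window; ChIP pileup in the Cdkn2c and Cdkn1b windows does not exceed 7.

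At the summits the reads that set the heights were compared with input as a description, since these reads chose the peaks. The list is also labelled 5-fold. If this fold is over input, which is not given, a high summit ratio was itself a condition of listing. Ratios are ChIP over input reads covering the summit, each read extended to the length that gave the listed heights and each library scaled to its total. At E2f2 site 2, 29 ChIP and 3 input reads gave a ratio of 26.2 (95% interval 8.14 to 135). The E2f4 site had 29 ChIP and 5 input reads and a ratio of 15.7 (6.03 to 52.1). These are the 2 highest summits of the 4, and their intervals overlap widely.

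E2f2 site 3 had 9 ChIP and 2 input reads, a ratio of 12.2 (2.53 to 116). E2f2 site 1 had 15 ChIP and 4 input reads, a ratio of 10.2 (3.24 to 42.1). The order of the 4 ratios was therefore not resolved at this depth. Counting 5′ ends within 100 bp instead gave 5.77, 8.75 and 4.75 at E2f2 sites 1, 2 and 3 and 10.9 at E2f4, which then ranked above site 2. With a longer read extension E2f4 also ranked above site 2, at 16.3 against 13.1. Input at the summits was near its window mean. It stood at 1.45, 1.09 and 0.725 times its mean over the E2f2 window at sites 1, 2 and 3, and at 1.59 times at E2f4. ChIP stood at 12.9, 25.03 and 7.77 times its own window mean at the E2f2 sites and at 24.3 times at E2f4.

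The summit reads were also counted by strand. Of the ChIP reads covering E2f2 site 1, 4 were forward and 11 reverse. At site 2 there were 13 and 16, at site 3 there were 5 and 4, and at E2f4 there were 12 and 17. The few input reads at site 1 were 1 forward and 3 reverse, and the difference in strand between sites was not tested.

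**Figure D2:**
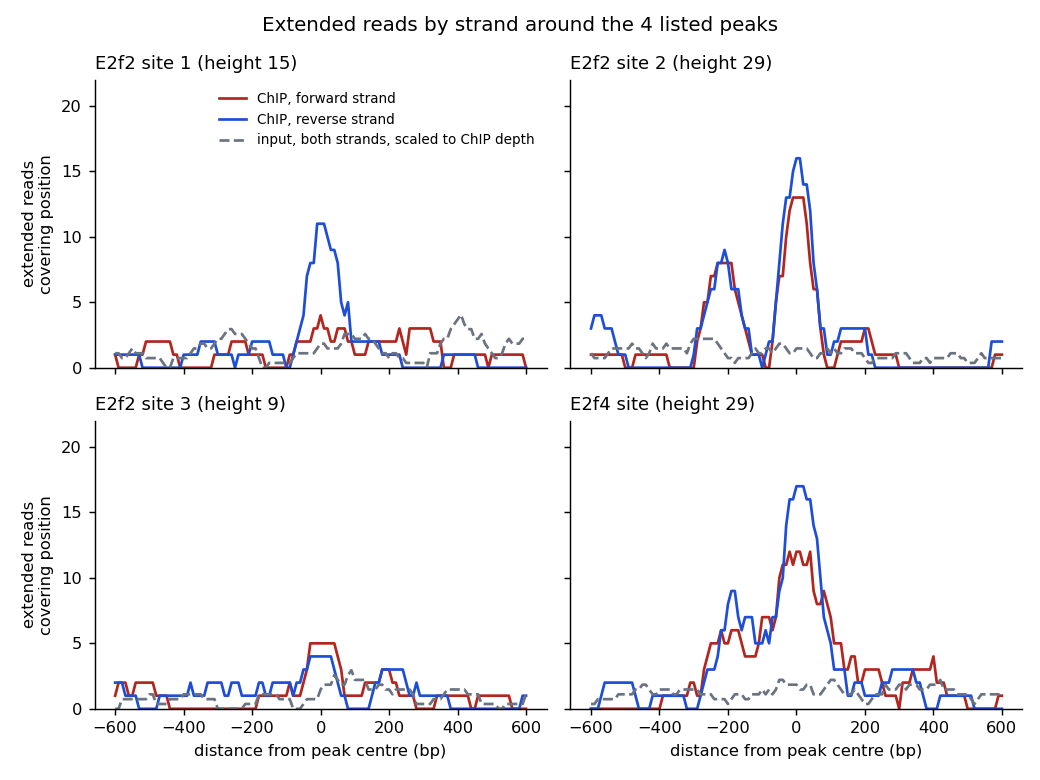
Number of extended reads covering each position (vertical axis) against distance from the peak centre (horizontal axis, bp) at the 4 listed peaks. Red and blue lines are forward and reverse ChIP reads and the dashed grey line is input of both strands scaled to ChIP depth. E2f2 site 2 and the E2f4 site each show a second, lower summit about 200 bp below the listed one, while E2f2 site 1 has 4 forward and 11 reverse reads at the summit and E2f2 site 3 is low on both strands.

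Beside the summits, enrichment was found at E2f2 site 2 and E2f4 and did not pass the test at E2f2 sites 1 and 3. Reads starting more than 100 and up to 300 bp outside the listed interval do not cover the summit and so did not set its height. The labels give fragments of 80 to 130 bp, so most of this distance lies beyond fragments that cover the summit. The test thus describes the surroundings of a peak, and passing or missing it does not show whether the summit itself is bound. At E2f4 there were 27 such ChIP reads and 9 input reads, a ratio of 8.15 (95% interval 3.72 to 19.7). The two-sided exact binomial test, adjusted by Benjamini-Hochberg over all 945 listed peaks, gave p = 1.43e-07. At E2f2 site 2 there were 24 ChIP and 10 input reads, a ratio of 6.52 (3.00 to 15.3) with adjusted exact binomial p = 4.87e-06. Both flanks were thus richer in ChIP reads by several fold.

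E2f2 site 1 had 12 ChIP and 14 input reads, a ratio of 2.33 (0.983 to 5.42) with adjusted exact binomial p = 0.119. E2f2 site 3 had 8 ChIP and 11 input reads, a ratio of 1.97 (0.690 to 5.39) with adjusted exact binomial p = 0.352. At both, flank enrichment was not detectable at this depth. In all, 2 of the 4 members passed, and over the whole list 28.0% of peaks passed with ChIP above input, and nothing particular to the members is read from 2 of 4.

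Flank ratios of listed peaks of the same heights are given for scale, and each of these sets includes the members. The 7 listed peaks of height 29, which include E2f2 site 2 and E2f4, had flank ratios from 2.55 to 20.4. Their median of 6.52 is the value of E2f2 site 2 itself. The 36 peaks of height 15 ran from 0.858 to 10.2 with a median of 2.62, and the 284 peaks of height 9 from 0 to 8.15 with a median of 1.36, highest values being taken where input flank reads were present. The median of the whole list was 2.04. By flank ratio E2f4 was among the upper 3.92% of the list and E2f2 site 2 among the upper 6.46%, while sites 1 and 3 lay near the middle, with 42.9% and 51.9% of peaks at or above them.

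**Figure D3:**
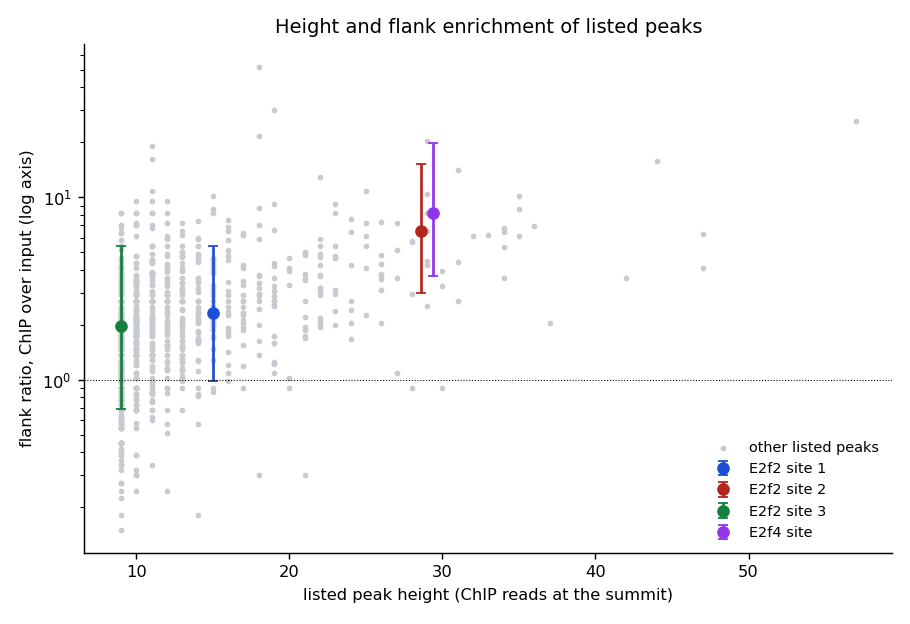
Flank ratio of ChIP over input (vertical log axis, reads between 100 and 300 bp outside the peak) against listed height (horizontal axis, reads) for the listed peaks. Grey points are the 918 peaks with at least 1 ChIP and 1 input flank read, coloured points are the 4 members with exact 95% intervals, and the dotted line is a ratio of 1. E2f2 site 2 and E2f4, drawn slightly apart at height 29, lie at 6.52 and 8.15, and the intervals of E2f2 sites 1 and 3 cross 1.

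The flank reads at the 2 highest sites formed a second summit rather than a smooth slope. This was noticed in the read profiles and is given as a description. Below E2f2 site 2, a separate ChIP pileup reached 17 at chr4:135733888-135733895, 194 bp from the listed interval, and the height between them fell to 0. There 8 forward and 9 reverse ChIP reads stood against 3 input reads, a ratio of 15.4 (4.45 to 82.0). This pileup is higher than E2f2 site 1 and site 3, both listed, yet has no entry of its own.

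Below the E2f4 summit, ChIP reads reached 15 at chr8:107823917-107823927, 180 bp away, with a height of 8 between. There 15 ChIP reads stood against 2 input reads, a ratio of 20.4 (4.74 to 184). A second summit of height 9 or more, rising by at least 3 reads from the lowest point between, was present between 100 and 300 bp from the interval at 8.68% of all listed peaks. Among the 105 listed peaks of height 20 or more it was present at 26 (24.8%). Of the members, E2f2 site 2 and E2f4 had one. At E2f2 sites 1 and 3 the highest pileup at that distance, on either side, was 5 and 6.

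The ratio changed with distance differently at each peak. Beyond 100 and up to 200 bp the ratio was 20.4 (4.74 to 184) at E2f2 site 2, with 15 ChIP and 2 input reads, and 11.4 (4.18 to 38.7) at E2f4, with 21 and 5. At E2f2 sites 1 and 3 it was 1.36 (0.364 to 4.36) and 1.16 (0.194 to 5.10) there, on 5 and 3 ChIP reads, and both intervals included 1. Beyond 200 and up to 300 bp the ratios were 4.75, 3.06 and 3.39 at E2f2 sites 1, 2 and 3 and 4.07 at E2f4, on 5 to 9 ChIP reads each, so sites 1 and 3 had higher ratios in this class than in the nearer one, with overlapping intervals. Beyond 300 and up to 500 bp they were 0.604, 0.453 and 1.21 at E2f2 and 1.81 at E2f4, and every one of these 4 intervals included 1. Over all listed peaks summed, the ratio fell from 2.68 to 1.88 and 1.33 across the same distances.

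Further out at E2f2 the summed ratio was again above 1, while the intervals of sites 1 and 3 included 1. Beyond 500 and up to 1000 bp the ratios at its 3 sites were 1.72 (0.915 to 3.16), 2.26 (1.186 to 4.275) and 1.66 (0.888 to 3.04). At site 2 this distance includes a pileup of 7 at chr4:135733320-135733344. The reads of the 3 sites summed to 58 ChIP and 85 input, a ratio of 1.85 (1.30 to 2.62). The same distance gave 1.18 over the whole list and 1.29 (0.544 to 2.87) at E2f4. Beyond 1000 and up to 2000 bp the E2f2 sum was 1.12 (0.852 to 1.46), with some reads counted for both site 1 and site 2, and E2f4 was at 1.81 (1.14 to 2.85). This distance pattern was picked out after its values were seen and was not tested.

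**Figure D4:**
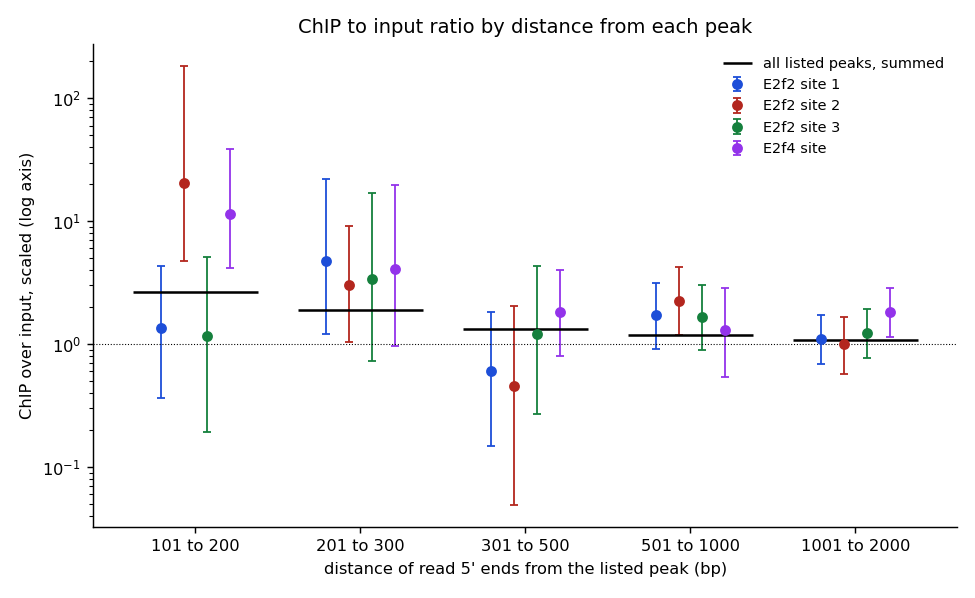
Ratio of ChIP over input (vertical log axis, scaled to library totals) by distance of read 5′ ends from the listed interval (horizontal axis, bp). Coloured points are the 4 members with exact 95% intervals, black bars the sum over all 945 listed peaks, and the dotted line a ratio of 1. E2f2 site 2 and E2f4 stand at 20.4 and 11.4 in the nearest class, and beyond 300 and up to 500 bp every interval includes 1.

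The orientation of the flank reads was also tested, though the test can say little about binding at the summits. Around a bound site, reads are often forward on the lower side and reverse on the upper side. With fragments of 80 to 130 bp, most fragments starting in the flanks would not reach the summit. The flanks of E2f2 site 2 and E2f4 also hold the second summits, with reads of both strands. At E2f4, 17 of 27 ChIP flank reads (63.0%) and 5 of 9 input reads (55.6%) had this orientation. At E2f2 sites 1, 2 and 3 it was 4 of 12, 12 of 24 and 4 of 8 ChIP reads. Of the 4 members 0 passed Fisher's exact test of strand against side after adjustment over the list, and 0 had an unadjusted p under 0.05, the lowest exact p being 0.236 at E2f4. Over the whole list 0.212% of peaks passed in that orientation, so single peaks rarely passed this test.

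A scan that did not use the peak list called E2f2 sites 1 and 2 and the E2f4 site, but not E2f2 site 3. Fixed bins of 200 bp with at least 5 reads were tested over the genome for ChIP above input by a one-sided exact binomial test with Benjamini-Hochberg adjustment, and 660 of 6641507 bins (0.00994%) passed at 0.05. In the 4 windows 4 of 813 tested bins passed, all within 300 bp of a listed peak. The windows had been chosen with these peaks known and the bins hold the reads that set the heights, so the count is not independent of the list. At E2f4 the bin at 107824000 held 41 ChIP and 9 input reads (ratio 12.4, 5.92 to 28.9, adjusted exact binomial p = 8.46e-11). The bin before it, at 107823800, held the second summit, with 16 and 4 reads (adjusted exact binomial p = 0.0145).

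At E2f2 site 2 the bin at 135734000 held 29 ChIP and 7 input reads (ratio 11.2, 4.82 to 30.4, adjusted exact binomial p = 1.47e-06). The bin with its second summit, at 135733800, held 17 and 7 reads and missed the threshold (adjusted exact binomial p = 0.0836). At E2f2 site 1 the bin at 135730800 held 16 and 5 reads and passed narrowly (adjusted exact binomial p = 0.0377). Site 1 had no passing bin when bins were moved by 100 bp or enlarged to 500 bp, when reads were moved by 50 bp, when every bin with a read was tested, or at a threshold of 0.01. At E2f2 site 3 no bin passed, the richest holding 12 ChIP and 6 input reads (ratio 5.43, 1.89 to 17.6). Over the list, 257 of 945 peaks (27.2%) had a passing bin.

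In the Cdkn2c window no bin passed, and its ratios rested on few reads. Of the 165 tested bins 0 passed the exact binomial scan, and 6 (3.64%) had an unadjusted p under 0.05, against 3.03% of all bins of the genome. The lowest unadjusted exact binomial p was 0.00216, in the bin at 109339000 with 7 ChIP and 2 input reads (ratio 9.50, 1.81 to 93.8). The highest ChIP pileup was 6, reached at 3 places. These lay at chr4:109339086-109339140 with 2 input reads (ratio 8.15, 1.46 to 82.5), at chr4:109339175 with 1 (16.3, 1.98 to 750) and at chr4:109358433-109358463 with 3 (5.43, 1.16 to 33.6). The first 2 places lie in the bin named above. All were picked as the highest in the window, which tends to raise their ratios, so the ratios are a description. Their intervals overlap those at the listed summits, and so few reads do not resolve them. In the same order, their flanks held 2 ChIP and 1 input reads, 0 and 1, and 0 and 10. In 54.2% of all 60 kb tiles of the autosomes the highest pileup was 6 or more, so such a height was common.

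In the Cdkn1b window the ratios rested on few reads as well. Of its 156 tested bins 0 passed the exact binomial scan, and 4 (2.56%) had an unadjusted p under 0.05. The highest ChIP pileup was 7, at chr6:134863214, with 2 input reads (ratio 9.50, 1.81 to 93.8). This place was also picked as the highest, so its ratio is a description. Its flanks held 4 ChIP and 11 input reads, a ratio of 0.988 (0.229 to 3.33). A pileup of 7 or more occurred in 16.5% of 50 kb tiles. A bin with 2 input reads needed 13 ChIP reads to pass the scan, so lesser enrichment in such a bin was not detectable at this depth.

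Over whole windows, ChIP and input were close. The E2f2 window held 803 ChIP and 1913 input reads, a ratio of 1.14 (1.05 to 1.24), and 1.02 (0.938 to 1.12) without the 300 bp around its listed summits. The E2f4 window held 590 and 1553 reads, a ratio of 1.03 (0.937 to 1.14), and 0.926 (0.837 to 1.02) without them. The Cdkn2c window was at 1.13 (1.01 to 1.26), with 452 and 1084 reads, and the Cdkn1b window at 0.996 (0.885 to 1.12), with 393 and 1072. The middle 95% of 50 kb tiles of the autosomes ran from 0.796 to 1.33 around a median of 1.02, and all 4 windows lay within that range. A tile of 70 kb with 3 or more listed peaks was seen 14 times in 33816, while 2.47% of such tiles held any listed peak. The tiles were a fixed grid and the E2f2 window was chosen with its peaks known, so this count does not measure how unusual E2f2 is. Among the listed peaks themselves, 27 of 945 (2.86%) lay in a group of 3 within 14.9 kb, the span of the E2f2 peaks.

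Away from the listed summits, bins of low p were counted by distance. Of the 91 tested bins within 5 kb of an E2f2 peak but more than 300 bp from it, 10 (10.99%) had an unadjusted exact binomial p under 0.05, against 4 of 178 (2.25%) further out. At E2f4 these were 1 of 39 and 3 of 167. The reads of the near bins gave a ratio of 1.16 (0.991 to 1.35) at E2f2 and 1.17 (0.923 to 1.475) at E2f4, and both intervals included 1. The far bins gave 0.957 (0.852 to 1.07) and 0.868 (0.771 to 0.975). None of these bins passed after adjustment, and the difference between near and far bins was not tested. The highest pileup away from the summits was 7 at E2f2, at chr4:135733320-135733344, chr4:135733363-135733367 and chr4:135736601-135736635. At E2f4 it was 6, at 7 places, 1 of them 331 bp from the listed summit. Input alone reached 14 in the E2f2 window, 12 in the E2f4 and Cdkn1b windows and 11 in the Cdkn2c window, on 2.72 times as many reads.

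The nearest listed peaks outside the windows lay from 35.0 to 5538 kb away. Listed peaks are sparse in general, since 1.80% of 50 kb tiles of the autosomes held any. For Cdkn1b a peak of height 13 lay 35.0 kb above the window, at chr6:134934967-134934976, with 13 ChIP and 4 input reads (ratio 8.83, 2.73 to 37.2). Its flanks held 9 and 10 reads (adjusted exact binomial p = 0.164). For Cdkn2c the nearest were 197 kb below (height 19) and 356 kb above (height 11). For E2f4 they were 314 kb below and 495 kb above, with heights of 19 and 10, and for E2f2 292 kb below and 5538 kb above, with heights of 11 and 13. Widening each window by 50 kb added 1 listed peak, that near Cdkn1b.

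A peak in a window is not assigned to a gene by these data. In the RefSeq gene order of GRCm38.p6 the neighbours of E2f2 are Id3 and Asap3, and those of E2f4 are Exoc3l and Elmo3. Cdkn2c lies between 9630013D21Rik and Faf1, and Cdkn1b between 2810454H06Rik and Lockd, all but Faf1 of these 4 being long noncoding RNA genes. Other cell cycle genes were not analysed here, since placing peaks at genes needs an annotation of mm9.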

How the data were processed

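KLF1 ChIP and input reads from pooled fetal livers were analysed as 2 combined libraries. Per the labels, the authors merged both sequencing systems and used mm9; aligner, peak caller and filters are not given in the sources used here. The deposited peak list gives a signal, the pileup height, which equalled the ChIP reads covering the listed start at an extension of 101 positions for 945 of 945 peaks. Reads were counted from the deposited positions, taken as 5′ ends; whether these count from 0 or 1 is not given. No reads in a library shared position and strand, so heights count each at most once.

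Ratios are scaled to all aligned reads, with exact Clopper-Pearson 95% intervals. Flanks and strands were tested over all 945 peaks and bins over the genome, with Benjamini-Hochberg adjustment at 0.05, and the tests were checked on simulated data. Tiles needed at least 100 input reads. The text names every listed peak and passing bin in the windows, the highest pileups away from them and the nearest outside peaks. The windows, lists and tests were chosen with earlier results of these data known. Counts and tests used SciPy 1.17.1 with NumPy 2.4.6 and pandas 2.3.3 under Python 3.11.15, and plots used matplotlib 3.10.9.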

Additional observations from a re-analysis of the deposited data

How the results depend on the processing

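Of 61 alternatives over 24 results, all fixed with the tests, 57 stayed within the limits set for a change (a tested value on the same side of its threshold, a count within 1.5 times, another value within its interval), 3 moved beyond them and 1 turned the direction. The number of bins past the scan in the windows, 4, was 2 with bins of 500 bp and 2 at a threshold of 0.01, where E2f2 site 2 and E2f4 were the sites with a passing bin. The ChIP to input ratio of the E2f2 window, 1.14, was 0.991 without 1 kb around its listed summits, and this is the change counted as turned. That of the E2f4 window, 1.03, was 0.910 and also crossed 1, but is counted as moved. Its first interval, 0.937 to 1.14, already included 1. The count stayed within 1.5 times with bins moved by 100 bp, with every bin with a read tested and with reads moved by 50 bp, but E2f2 site 1 then had no passing bin. Summit ratios at E2f2 sites 1, 2 and 3, which were 10.2, 26.2 and 12.2, were 6.21, 13.1 and 8.15 under a longer read extension and 5.77, 8.75 and 4.75 for 5′ ends within 100 bp; that of E2f4, 15.7, was 16.3 and 10.9. In the flanks E2f2 site 2 and E2f4 passed and E2f2 sites 1 and 3 did not under all 4 alternatives tried, namely scaling to autosomal reads, flanks to 200 or 500 bp, and a local baseline 2 to 25 kb from each peak, which stood in for the window. The flank ratio of E2f2 site 2 ranged from 3.21 to 20.4 and that of E2f4 from 3.92 to 11.4. No paired analysis was possible because each group is 1 combined library, and leaving out a sequencing system was not run for the same reason. With 9 to 29 ChIP reads per summit and 8 to 27 per flank, ratios are uncertain by several fold.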
